A study of Macaca mulatta with 30 samples.

Results

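The 10 genes MYRF, SOX10, S1PR5, GPR37, ASPA, FA2H, GJB1, KLK6, PADI2 and CNDP1 encode transcription factors, receptors, enzymes, a channel and secreted proteins of oligodendrocytes, the myelin-forming glia of the brain. They were chosen by name, with earlier results of these data known. All 10 were found among the 15521 genes of the table, and all 10 passed the filter on low values. Their levels were measured by RNA-seq in cortical area 32, a medial prefrontal region, of 30 male rhesus macaques, with 1 library per animal. Every animal had drunk ethanol (4%, weight by volume) by choice for more than 12 months, for 22 h a day with water and meals at hand, so no group is without ethanol. Very heavy drinkers (VHD, n = 6) took more than 3 g/kg a day on average and more than 4 g/kg on at least 10% of days. Heavy drinkers (HD, n = 7) reached 3 g/kg on at least 20% of days. Binge drinkers (BD, n = 7) reached 2 g/kg on at least 55% of days and, at least once a year, a blood ethanol of 80 mg/dl. Low drinkers (LD, n = 10) met none of these definitions. The animals belong to cohort 4 (n = 9), cohort 5 (n = 8), cohort 7a (n = 8) and cohort 7b (n = 5), whose mean ages at the end of drinking were 9.98, 7.15, 5.70 and 7.18 years.

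Oligodendrocytes wrap axons in myelin, a compacted membrane rich in galactolipids and in proteins such as MBP and MAG. SOX10 acts throughout the lineage and switches on MYRF, and both factors then drive the genes of myelin. Mature cells also signal through lipid and peptide receptors, couple to other glia through gap junctions, and break down metabolites made by neurons.

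The libraries held 4.39 to 13.99 M reads (M stands for 10 to the power 6) in the exons measured, with medians of 7.34, 10.5, 8.24 and 9.12 M in cohorts 4, 5, 7a and 7b. Drinking category and cohort are not balanced: cohort 4 has 4 LD, 4 BD, 1 HD and no VHD animal, and cohort 5 has 4 VHD, 3 HD, 1 BD and no LD animal. The first 8 library numbers, whose meaning the labels do not state, hold 4 of the 7 HD and 1 of the 10 LD libraries. Of the lists used to check the tissue, 10 of 12 excitatory and 12 of 12 inhibitory neuron markers were among the genes measured. So were 15 of 16 structural myelin genes, and every gene found from these lists passed the filter. Of 8 red blood cell markers only 5 were among the genes measured, and 0 of these passed. In bulk tissue, fewer cells of a type and less RNA per cell cannot be told apart.

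The 10 genes span a wide range of levels. Per kb of exon, PADI2 stood at 294.9 normalized reads (mean of 30 animals), above every other member in each animal. SOX10 (55.9) and GPR37 (52.2) followed, and SOX10 was the higher of this pair in only 17 of 30 animals. ASPA (38.5), CNDP1 (38.4) and MYRF (37.9) did not separate either, with ASPA above CNDP1 in 16 animals and CNDP1 above MYRF in 15. KLK6 (21.6), FA2H (14.4), GJB1 (12.7) and S1PR5 (6.91) were the lowest, and GJB1 exceeded S1PR5 in 28 of 30 animals. The least abundant members rest on few reads. S1PR5 had 4 to 55 reads a library, GJB1 4 to 96, FA2H 11 to 83 and KLK6 1 to 99, against 612 to 2458 for PADI2. S1PR5 reached 10 normalized reads in 18 libraries, GJB1 in 26, KLK6 in 27 and the others in all 30.

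Spread between animals differed as widely. PADI2 was the steadiest, with a highest library 1.83 times the lowest and an SD of 0.26 on the log2 scale, the 63.9th percentile of the 12935 tested genes. KLK6 was the most variable, with an SD of 1.17 (99.7th percentile) and a 127-fold range whose lower end is a library with 1 read. MYRF, with 87 reads or more in every library, still varied 5.98-fold (SD 0.64). Counting error is a larger share of the spread in genes with few reads, and its part was not separated.

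Differences between groups were estimated with limma on log2(normalized reads + 1) with category and cohort in the model, are given as estimate ± SE, and are called at a Benjamini-Hochberg adjusted p under 0.05 over all 12935 genes. No member was called in any comparison, so directions below are values, not calls. The libraries are separate animals of 1 category each.

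Heavy drinkers against low drinkers asks how the members stand at high intake, with the most animals on the heavy side. By the model estimates all 10 members were lower in HD, with a median difference of −0.35. Of all tested genes 49.5% were lower, and the median gene stood at 0.00. The plain medians of SOX10, ASPA and FA2H (33.2 against 30.3 normalized reads) were nonetheless higher in HD than in LD. The members vary together across animals (median r of pairs 0.63). Their shared signs, here and in the comparisons below, are therefore not separate observations. PADI2, which converts arginine to citrulline in proteins including myelin basic protein, and CNDP1, a secreted dipeptidase that splits carnosine, had the largest differences relative to their errors. These were the only members (2 of 10) at an unadjusted p under 0.05, a level that 12.5% of all tested genes reached (6.68% of genes were lower at that level), and 0 of 12935 genes (0%) were called.

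**Figure D1:**
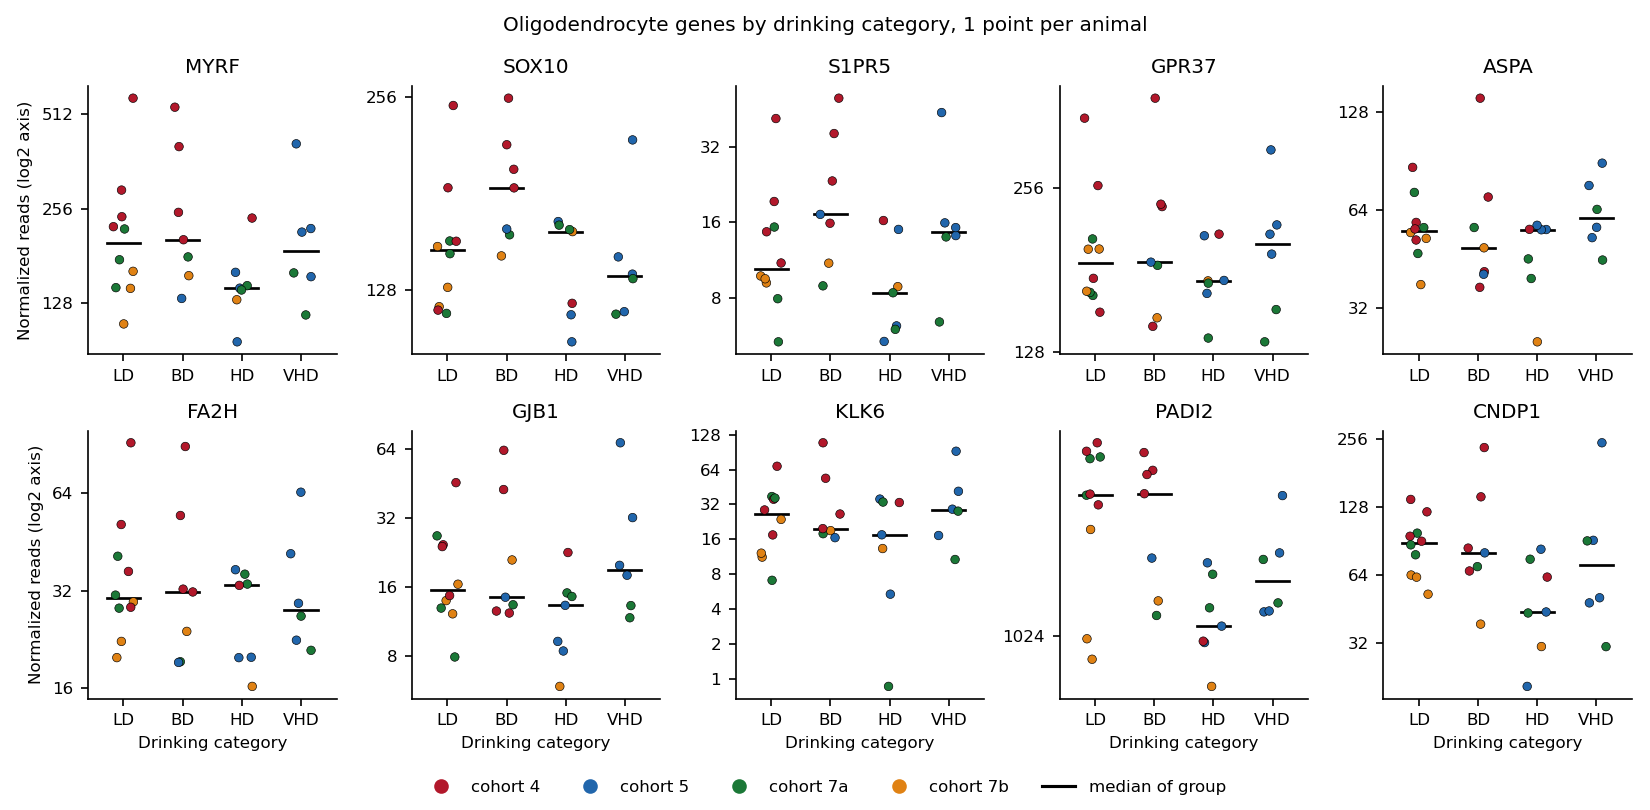
Normalized reads (log2 axis) of the 10 genes in each animal, by drinking category (LD n = 10, BD n = 7, HD n = 7, VHD n = 6), coloured by cohort, with a bar at each group's median. PADI2 in the 7 HD animals sits between 903.4 and 1227, below most LD animals. CNDP1 sits between 20.7 and 83.4 in HD, against 52.8 to 138.5 in LD. The HD and LD ranges overlap for all 10 genes.

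PADI2 measured 1010 normalized reads in the HD animal of cohort 4, 1007, 1049 and 1227 in those of cohort 5, 1097 and 1192 in those of cohort 7a and 903.4 in that of cohort 7b. The LD animals ranged from 966.2 to 1651 with a median of 1452. All 7 HD animals lay under the LD mean, and the 2 LD animals below the highest HD animal both came from cohort 7b. The difference was −0.40 ± 0.09 (limma, adjusted p = 0.200, 95% interval −0.58 to −0.23), and with any 1 library left out it ran from −0.43 to −0.33.

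Cohort by cohort, the HD animal of cohort 4 was apart from the other 8 animals of its cohort, whose PADI2 values were 1416 to 1651. In cohort 7a the 3 LD animals (1450, 1587 and 1594) did not overlap the 2 HD and 2 VHD animals (1097 to 1237), a difference of −0.41 ± 0.09 (limma within the cohort, adjusted p = 0.678); 1 of 10 members and 7.14% of all genes had an unadjusted p under 0.05 there. The 1 BD animal of cohort 7a, at 1077, was below both HD animals. In cohort 7b the HD animal (903.4) was the lowest of 5, close to the LD animals at 966.2 and 1016. Cohort 5 holds no LD animal, so it gives no such difference.

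The library numbers differ between HD and LD, so PADI2 was set against them. Among libraries outside the first 8 numbers, the 3 HD animals were at 1010 to 1097 and the 9 LD animals at 966.2 to 1651 with a median of 1454. With the library numbers in the model, as 4 sets of 8, the difference was −0.34 (limma, adjusted p = 0.918). The single LD library among the first 8 numbers, from cohort 7b, was at 1016, and the 4 HD libraries there at 903.4 to 1227. Within that set the values overlapped.

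The lower PADI2 value was spread over the gene. PADI2 lies on chromosome 1 at 15676887–15728709, as the exon names give it (the genome build was not given), and all 16 of its exons were tested. In HD against LD 15 of the 16 were below 0, where 52.1% of all 119940 tested exons were, and 10 had an unadjusted p under 0.05, which 9.29% of exons reached. No exon was called (0%). The reads of a gene are the sum of its exon reads, and its exons share the same animals. The exon counts, here and for CNDP1 and MYRF below, are therefore no separate test of the gene. The exon with the smallest p, 15693966–15694069, was at −0.64 ± 0.16, and the longest exon, 15676887–15679377 with 2491 bases, at −0.35 ± 0.10. The exception was 15728536–15728709 at 0.10 ± 0.28. Measured relative to the rest of the gene, 0 of the 16 exons had an unadjusted p under 0.05 (7.05% of all exons).

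**Figure D2:**
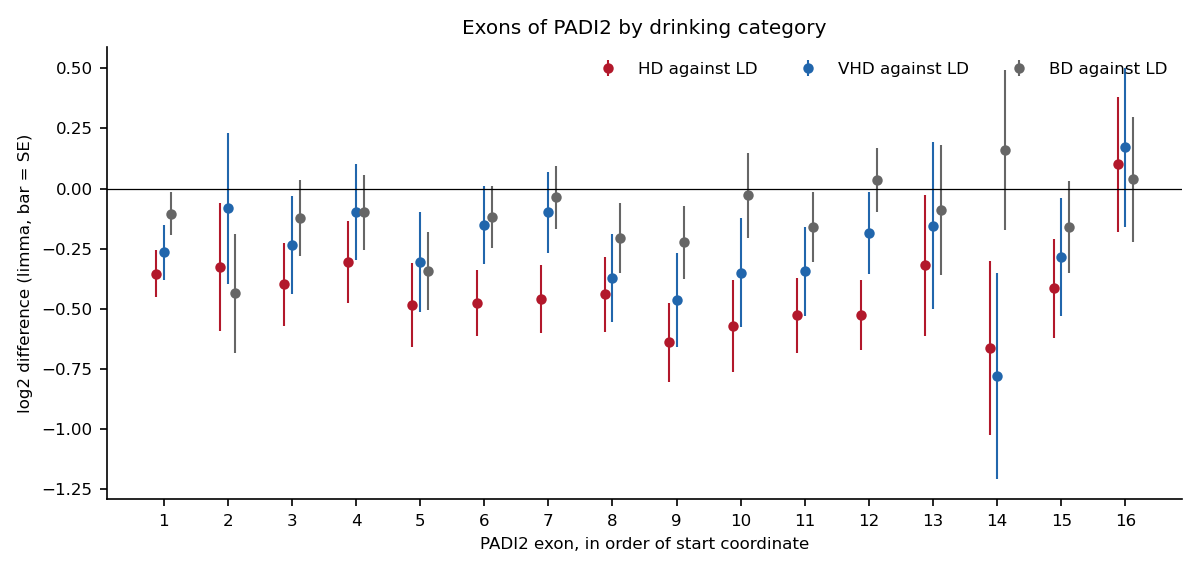
Log2 difference of each of the 16 PADI2 exons against LD (limma estimate, bars are SE) for HD, VHD and BD, with exons ordered by start coordinate. In HD 15 exons lie below 0, with a median of −0.45; VHD exons lie nearer 0 (median −0.25) and BD exons nearest (median −0.11).

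CNDP1 measured 62.8 normalized reads in the HD animal of cohort 4, 20.7, 44.1 and 83.4 in cohort 5, 43.6 and 75.4 in cohort 7a and 31.0 in cohort 7b. LD animals ranged from 52.8 to 138.5 with a median of 88.9. All 7 HD animals were under the LD mean, though the ranges overlapped. The difference was −0.88 ± 0.33 (limma, adjusted p = 0.318), between −1.03 and −0.76 with any 1 library left out. Within cohorts the same order held: the HD animal of cohort 4 lay below its 4 LD animals (90.5 to 138.5), both HD animals of cohort 7a below their 3 LD animals (78.8 to 98.3), and the HD animal of cohort 7b below its 3 (52.8 to 64.2). All 11 tested exons of its 12 (chromosome 18, 64600534–64648411) were below 0 in HD against LD, from −1.39 to −0.32 (52.1% of all tested exons were below 0), and 5 had an unadjusted p under 0.05 (9.29% of exons).

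The 2 transcription factors differed in how far their estimates lay below 0. MYRF, a membrane-bound factor whose released fragment enters the nucleus, ranged from 96.5 to 239.3 normalized reads in HD (median 143.0) and from 110.0 to 577.2 in LD (median 198.6). Its difference was −0.33 ± 0.23 (limma, adjusted p = 0.553), and the highest HD animal was the one of cohort 4. SOX10 had medians of 157.9 in HD and 147.8 in LD and a difference of −0.03 ± 0.16, with an interval from −0.34 to 0.29. The receptor genes overlapped throughout. S1PR5, which encodes a sphingosine-1-phosphate receptor, ranged from 5.36 to 16.2 normalized reads in HD and from 5.34 to 41.4 in LD (−0.33 ± 0.32). GPR37, an orphan-type G protein-coupled receptor, ranged from 135.6 to 210.4 and from 151.3 to 343.4 (−0.19 ± 0.17).

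ASPA, which splits N-acetylaspartate into aspartate and acetate, had nearly equal medians (55.6 in HD and 55.2 in LD) and a difference of −0.36 ± 0.22. Its lowest animal, at 25.1, was the HD animal of cohort 7b. FA2H, which hydroxylates the fatty acids of myelin galactolipids, was at −0.25 ± 0.28, with 16.2 to 37.1 normalized reads in HD and 19.9 to 91.0 in LD. GJB1, a connexin of gap junctions, was at −0.48 ± 0.37 (5.90 to 22.6 against 7.93 to 45.5). KLK6, a secreted serine protease, was at −0.66 ± 0.54 (0.855 to 35.5 against 7.06 to 68.3), with an interval from −1.75 to 0.43. None of these 4 differences had an unadjusted p under 0.05 (limma).

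Other lists were measured beside the members. Over all genes, 49.5% were lower in HD against LD. An unadjusted p under 0.05 was reached by 12.5% of all genes there (6.68% lower). Of 15 structural myelin genes 14 were lower in HD, with a median of −0.22, and 4 had an unadjusted p under 0.05, MAG at −0.71 ± 0.26 and PMP22 at −0.25 ± 0.09 among them. Of 12 mural cell and fibroblast markers 10 were lower, with a median of −0.68, and 7 had an unadjusted p under 0.05 (COL1A1 −1.32 ± 0.42). The summed level of that list, as a mean z value per animal, ran from −1.29 to 1.25 in HD and from −0.86 to 0.61 in LD, and its part in the member values was not tested. Of 11 astrocyte markers 9 were lower (median −0.14) and 2 had an unadjusted p under 0.05, GFAP at −0.41 ± 0.14 and FGFR3 at −0.40 ± 0.13. The astrocyte score ran from −1.16 to 0.41 in HD (median −0.14) and from −1.17 to 0.55 in LD (median 0.26). Of 11 microglia markers 8 were lower (median −0.12) and 3 had an unadjusted p under 0.05, with CSF1R at −0.33 ± 0.11, and the microglia score ran from −0.98 to 0.63 in HD (median −0.56) and from −0.62 to 0.99 in LD (median −0.12). The part of these 2 lists in the member values was not tested either. Oligodendrocyte precursor markers had a median of 0.04, with 0 of 11 at an unadjusted p under 0.05.

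To ask what remains once animals are set at equal myelin level, the mean z value of the 15 structural myelin genes was added to the model. PADI2 in HD against LD was then at −0.36 ± 0.09 (limma, adjusted p = 0.154), and CNDP1 stood at −0.59 ± 0.28 (adjusted p = 0.311). These were again 2 of 10 members at an unadjusted p under 0.05, against 15.5% of all genes. MYRF moved to −0.03 ± 0.13 and GPR37 to 0.01 ± 0.12. The other 6 members lay between −0.23 (KLK6) and 0.09 (SOX10). A score made of expression shares cell number with the members, so these values describe the members relative to myelin RNA of the same library.

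**Figure D3:**
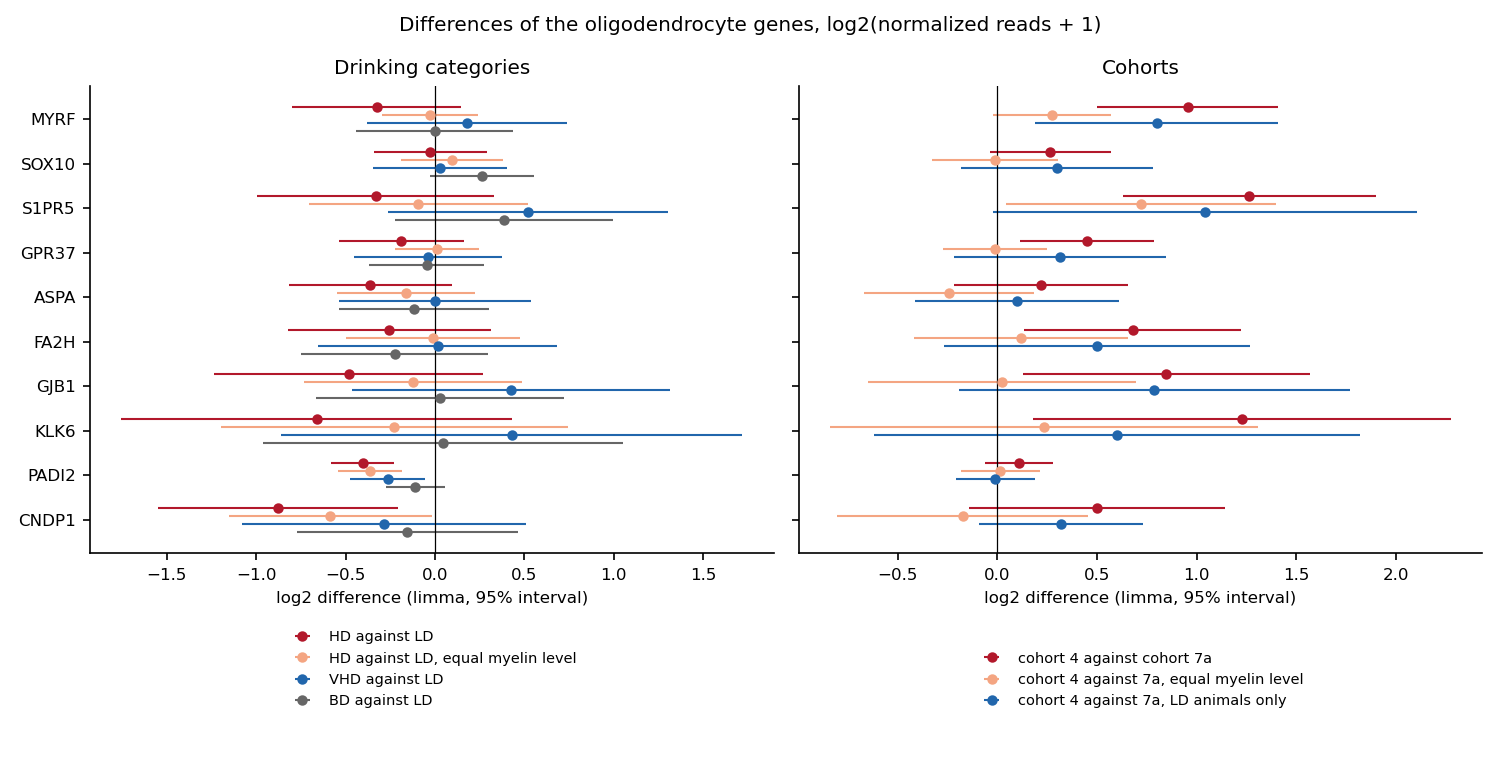
Log2 differences (limma estimate with 95% interval) of the 10 genes for the drinking categories against LD, left, and for cohort 4 against cohort 7a, right, with and without the structural myelin score in the model, and for cohort 4 against 7a also within LD animals. In HD the intervals of PADI2 (−0.40 and −0.36) and of CNDP1 stay below 0 in both fits, while MYRF goes from −0.33 to −0.03. In cohort 4 MYRF goes from 0.96 to 0.27.

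Very heavy drinkers against low drinkers gave a mixed picture, with 6 members higher and 4 lower (median 0.02, where 50.1% of all genes were lower). The LD animals are the same as in the comparison with HD. PADI2 was the only member at an unadjusted p under 0.05, which 3.50% of all genes reached. PADI2 measured 1086, 1089, 1257 and 1449 normalized reads in the VHD animals of cohort 5 and 1111 and 1237 in those of cohort 7a. All 6 were within the LD range, and 5 of them were under the LD mean. The difference was −0.27 ± 0.10 (limma, adjusted p = 0.948), and −0.29 ± 0.10 at equal myelin level (adjusted p = 0.995, 1 of 10 members at an unadjusted p under 0.05 against 3.17% of genes). Without VHD replicate 5, at 1111, it was −0.22 and no member had an unadjusted p under 0.05.

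The remaining 9 members had intervals across 0 in VHD. The largest estimates were S1PR5 at 0.52 ± 0.38, KLK6 at 0.43 ± 0.63 and GJB1 at 0.43 ± 0.44. CNDP1, low in HD, was at −0.28 ± 0.39, with 31.0 to 246.4 normalized reads in VHD. MYRF was at 0.18 ± 0.27 and SOX10 at 0.03 ± 0.18. The same animal, VHD replicate 4 of cohort 5, was the highest of the 6 VHD animals for all 10 genes, with MYRF at 412.8, CNDP1 at 246.4, KLK6 at 92.0 and GJB1 at 67.9 normalized reads, and it also had the highest myelin score of the 6, at 1.20.

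Binge drinkers against low drinkers gave 0 of 10 members at an unadjusted p under 0.05, against 3.05% of all genes, and 0 called by limma or by edgeR. SOX10 had the largest difference relative to its error, 0.26 ± 0.14, with 144.8 to 254.8 normalized reads in BD and 117.8 to 248.2 in LD. Above the LD mean of SOX10 were 6 of the 7 BD animals. PADI2 was at −0.11 ± 0.08 and all 10 intervals crossed 0. At equal myelin level SOX10 was at 0.25 ± 0.12 and PADI2 at −0.11 ± 0.08, with 0 of 10 members at an unadjusted p under 0.05 (3.22% of genes; 0 called by limma). Within cohort 4, where 4 BD and 4 LD animals meet, the 10 members ran from 0.00 (PADI2) to 0.56 (S1PR5), with 0 at an unadjusted p under 0.05 (1.89% of genes) and SOX10 at 0.31 ± 0.20.

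Over all categories, PADI2 was the only member at an unadjusted p under 0.05, both for any difference between categories (5.62% of genes) and for a trend with 1 step from each category to the next, in the order LD, BD, HD, VHD (6.18% of genes). Its slope was −0.12 ± 0.04 per step (limma, adjusted p = 0.745). The slopes of the others ran from −0.18 ± 0.13 (CNDP1) to 0.09 ± 0.13 (S1PR5). HD, not VHD, had the lowest PADI2 median (1049 against 1174), so the medians are not graded over the 4 categories.

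Cohort 5 allows VHD (n = 4) and HD (n = 3) animals to be compared within a cohort. All 10 members were higher in VHD, where 49.6% of all genes were, with a median of 0.70, and 3 had an unadjusted p under 0.05 against 2.35% of genes. MYRF measured 155.6, 215.9, 221.6 and 412.8 normalized reads in VHD and 96.5, 143.0 and 160.7 in HD, which overlap by 1 animal on each side. The difference was 0.85 ± 0.28 (limma, adjusted p = 1.0). GJB1 measured 18, 19.9, 32.1 and 67.9 in VHD and 8.42, 9.27 and 13.3 in HD, which do not overlap (1.47 ± 0.44, adjusted p = 1.0). S1PR5 was at 1.21 ± 0.48. All 15 structural myelin genes were also higher in VHD there (median 0.71, 9 at an unadjusted p under 0.05). Without VHD replicate 4 the differences of MYRF, GJB1 and S1PR5 were 0.58, 1.08 and 0.84.

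The cohorts differ in age. Cohort 4, the oldest at the end of drinking, was compared with cohort 7a, the youngest. All 10 members were higher in cohort 4, with a median of 0.59, where 51.8% of all genes were higher. MYRF, S1PR5, GPR37, FA2H, GJB1 and KLK6 (6 of 10) had an unadjusted p under 0.05, a level reached by 9.15% of all genes (4.94% higher). None was called, and PADI2 was among those with small differences.

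**Figure D4:**
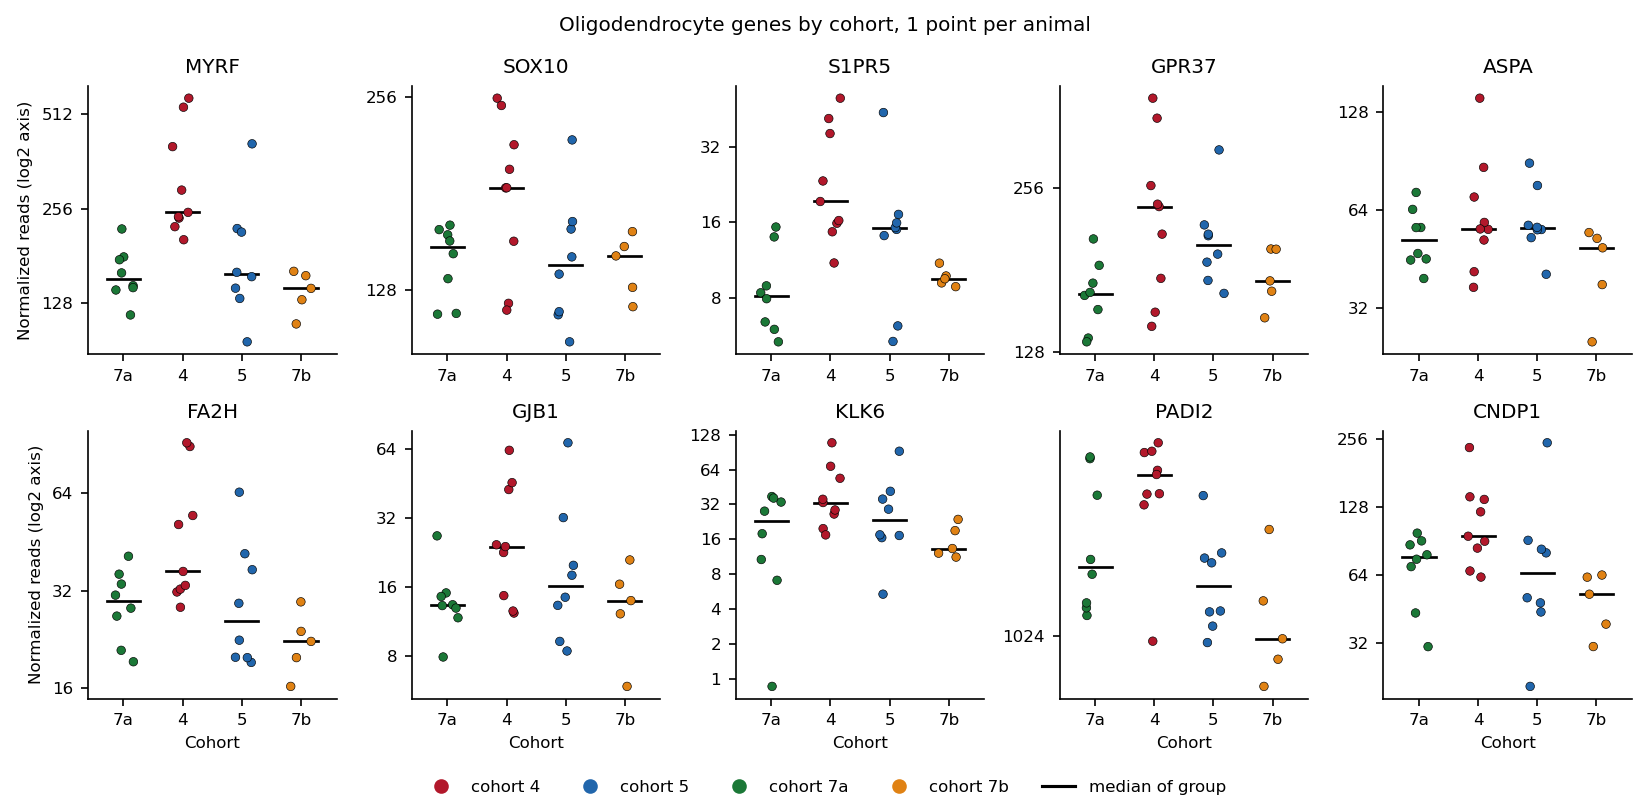
Normalized reads (log2 axis) of the 10 genes in each animal, by cohort (7a n = 8, 4 n = 9, 5 n = 8, 7b n = 5), with a bar at each cohort's median. MYRF in cohort 4 lies between 204.1 and 577.2 and in cohort 7a between 117.5 and 220.9; the 5 animals of cohort 7b stay within the range of cohort 7a or below it for most genes.

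MYRF ranged from 204.1 to 577.2 normalized reads in cohort 4 (median 249.5), from 96.5 to 412.8 in cohort 5 (158.1), from 117.5 to 220.9 in cohort 7a (152.8) and from 110.0 to 161.8 in cohort 7b (142.8). In all, 8 of the 9 animals of cohort 4 were above the highest of cohort 7a. The difference was 0.96 ± 0.22 (limma, adjusted p = 0.147), a fold of 1.94 on that scale, and 0.83 to 1.05 with any 1 library left out. All 23 tested exons of the 26 of MYRF (chromosome 11, 12351003–12384897) were higher, from 0.40 to 1.44, where 48.7% of all exons were, and 16 had an unadjusted p under 0.05 (6.86% of exons).

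S1PR5 ranged from 11.0 to 49.9 normalized reads in cohort 4 (median 19.3) and from 5.34 to 15.3 in cohort 7a (8.15), and 7 of the 9 animals were above the cohort 7a range. The difference was 1.27 ± 0.31 (limma, adjusted p = 0.147). GPR37 was at 0.45 ± 0.16 (142.5 to 373.7 against 133.5 to 206.2) and FA2H at 0.68 ± 0.27 (28.4 to 91.0 against 19.3 to 40.8). GJB1 was at 0.85 ± 0.35 and KLK6 at 1.23 ± 0.51, where KLK6 was at 0.89 without the HD animal of cohort 7a that had 1 read. SOX10 (0.27 ± 0.15), ASPA (0.22 ± 0.21), CNDP1 (0.50 ± 0.32) and PADI2 (0.11 ± 0.08) had intervals across 0.

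Restricted to LD animals (4 of cohort 4 and 3 of cohort 7a), 9 of 10 members were higher in cohort 4 (51.7% of genes), and only MYRF had an unadjusted p under 0.05 (4.28% of genes). MYRF measured 224.6, 241.7, 293.9 and 577.2 normalized reads in cohort 4 and 143.6, 176.2 and 220.9 in cohort 7a, which do not overlap. The difference was 0.80 ± 0.28 (limma, adjusted p = 0.998), and 0.50 without LD replicate 3, the animal at 577.2. Age and cohort cannot be told apart, because each cohort has 1 mean age. The libraries of cohort 4 are all outside the first 8 numbers, and 3 of 8 in cohort 7a are within them.

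The myelin genes had the same sign as the members. All 15 structural myelin genes were higher in cohort 4 than in cohort 7a (median 0.62), where 51.8% of all genes were higher. Of these 15, 10 had an unadjusted p under 0.05 (9.15% of genes, 4.94% higher), MAG at 0.84 ± 0.25 and PLLP at 0.69 ± 0.21 among them. The myelin score ran from −0.67 to 2.3 in cohort 4 and from −0.77 to 0.37 in cohort 7a. At equal myelin level MYRF stood at 0.27 ± 0.14 and S1PR5 at 0.72 ± 0.33, the latter the only member at an unadjusted p under 0.05 (6.60% of genes; adjusted p = 0.750). GPR37 (−0.01 ± 0.13), GJB1 (0.02 ± 0.33), FA2H (0.12 ± 0.26) and KLK6 (0.23 ± 0.53) were near 0 relative to their errors.

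The other cohorts differed less from cohort 7a. In cohort 5, GPR37 alone had an unadjusted p under 0.05 (8.59% of genes), at 0.36 ± 0.17, with all 8 animals above the cohort 7a mean. In cohort 7b it was PADI2 alone (5.04% of genes), at −0.35 ± 0.09 (limma, adjusted p = 0.797), with 903.4 to 1332 normalized reads against 1077 to 1594 in cohort 7a. For any difference between the 4 cohorts, 6 of 10 members had an unadjusted p under 0.05 against 8.04% of genes: MYRF and PADI2 (adjusted p = 0.210 for each, limma), S1PR5 (0.293), FA2H (0.404), GPR37 and CNDP1 (0.555 for each).

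Across the 30 animals every member followed the myelin score. MYRF did so most closely, with Pearson's r of 0.93 and Spearman's rho of 0.88 (permutation test, 100000 resamples, adjusted p = 1.43e-05 and 0.0001 over the 10 relations). GPR37 (r 0.83), GJB1 (0.81), S1PR5 (0.76), FA2H (0.75), CNDP1 (0.74), ASPA (0.71) and KLK6 (0.71) came next. SOX10 (r 0.64, rho 0.40) and PADI2 (r 0.57, rho 0.51) followed it least, and the largest adjusted p of r was 0.00079, for PADI2. All 10 had r above 0.5, as had 1.66% of 12920 tested genes outside the myelin list. These members are known oligodendrocyte genes, so this places them with the list and is no separate test. The permutations moved animals between cohorts, so the p values of r and rho include any shift between cohorts. The r of the score with log2 depth was −0.10.

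**Figure D5:**
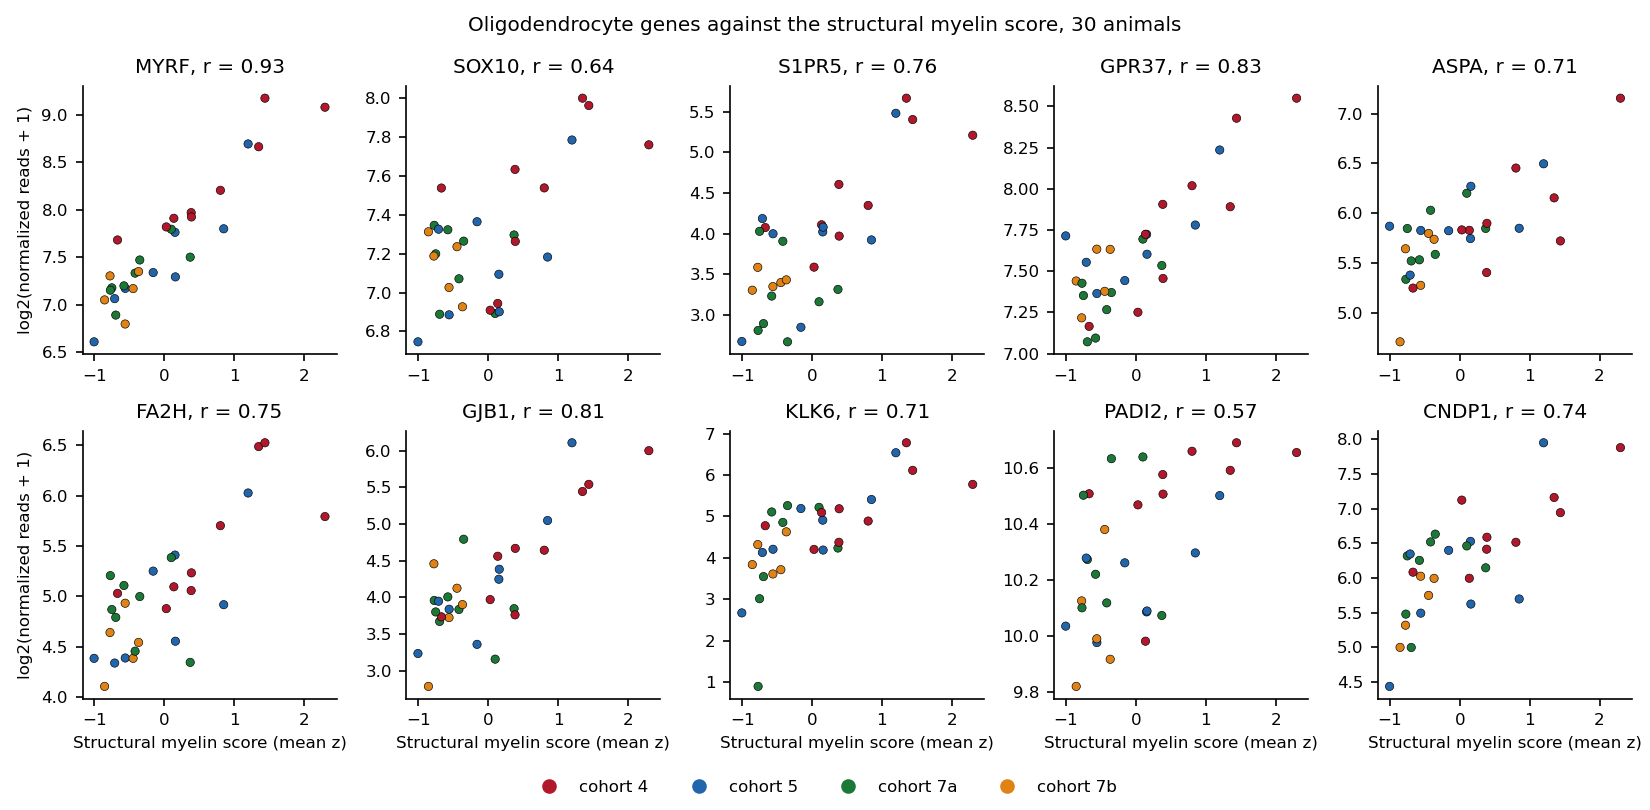
Log2(normalized reads + 1) of the 10 genes against the structural myelin score (mean z of 15 genes), 1 point per animal, coloured by cohort. MYRF follows the score along its whole range (r 0.93), while PADI2 (r 0.57) scatters more widely around it.

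The values of r varied by cohort. Without the 2 animals farthest from the median score, r was between 0.46 (PADI2) and 0.89 (MYRF). Within cohort 4 (n = 9) it ran from 0.49 to 0.93 and within cohort 5 (n = 8) from 0.64 to 0.93. Within cohort 7a (n = 8) it was 0.80 for MYRF, 0.67 for GPR37 and 0.60 for ASPA. For 5 members no positive relation was seen there: −0.27 for FA2H, −0.23 for GJB1, −0.10 for SOX10, −0.02 for S1PR5 and 0.05 for PADI2. The score ran only from −0.77 to 0.37 in cohort 7a, against −0.67 to 2.3 in cohort 4. With 8 animals r is imprecise, and its differences between cohorts were not tested. Cohort 7b has 5 animals, too few for a value.

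Among themselves the members formed 45 pairs, with a median r of 0.63 over 30 animals. MYRF and FA2H were the closest pair (r 0.84, rho 0.73; permutation test, adjusted p = 5.62e-05 and 0.0003). SOX10 and ASPA were the farthest (r 0.19, rho −0.05; adjusted p = 0.310 and 0.807). MYRF had the highest median r with the other 9 members (0.77), and ASPA (0.48) and PADI2 (0.50) the lowest. After category and cohort were fitted out, PADI2 and CNDP1 had r 0.33, against 0.66 before.

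By Pearson's r over the 30 libraries, the genes most like the mean of the 10 members were MAG (0.95), CNP (0.95), ERBB3 (0.94), PLEKHH1 (0.93) and TTYH2 (0.91). MAG and CNP are on the structural myelin list and PLEKHH1 and TTYH2 on that of mature oligodendrocyte markers. ERBB3 is on the list of receptor and signalling genes. MYRF was most like CNP (0.95) and PLEKHH1 (0.94), GJB1 most like PLLP (0.85) and MAL (0.84), and CNDP1 most like MAG (0.82) and MYRF (0.79). S1PR5 was most like HAPLN2 (0.83) and MYRF (0.82), FA2H most like MYRF (0.84) and C10orf90 (0.80), and KLK6 most like MYRF and MOG (0.74 for each). For GPR37 the nearest were RTKN (0.84) and CNP (0.82), for ASPA CCDC152 (0.84) and CLDN11 (0.81), and for SOX10 PHLDB1 (0.78) and CARNS1 (0.78). PADI2 had RAD54L (0.77) and DAAM2 (0.76), both below the likeness seen for most members.

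The pathway partners of the members were taken from lists of related genes, and their counts are at an unadjusted p under 0.05. Over all genes that level was reached by 12.5% in HD against LD (6.68% lower) and by 9.15% in cohort 4 against 7a (4.94% higher), and several of these short lists lie near those shares. Of 17 transcription factors of the lineage other than MYRF and SOX10, HD against LD gave 1 higher (HDAC2 0.23 ± 0.08) and 1 lower (ZNF536 −0.29 ± 0.10) at an unadjusted p under 0.05, and cohort 4 against 7a gave 3 higher, with NKX6-2, a homeobox factor of mature oligodendrocytes, at 0.95 ± 0.33. Of 19 receptor and signalling genes, 8 were lower and 1 higher in HD at that level, with FGFR3 at −0.40 ± 0.13 and PLXNB3 at −0.47 ± 0.16 against PDE6D at 0.29 ± 0.10. ERBB3, a neuregulin receptor, was 0.73 ± 0.18 higher in cohort 4. Around S1PR5, 3 of 13 sphingosine-1-phosphate genes were lower in HD at an unadjusted p under 0.05 (6.68% of genes), with SPHK1, a kinase that makes the lipid, at −0.65 ± 0.21. None of these genes was called.

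Around the enzymes, 1 of 17 sphingolipid genes of myelin had an unadjusted p under 0.05 in HD (ELOVL1, a fatty acid elongase, −0.36 ± 0.11) and 1 in cohort 4 (UGT8, which makes galactosylceramide, 0.70 ± 0.24). Of 11 N-acetylaspartate genes, 2 were lower in HD at an unadjusted p under 0.05 (6.68% of genes), and SLC13A3, a dicarboxylate transporter, stood at −0.66 ± 0.22 in HD and −0.67 ± 0.21 in cohort 4 against 7a. Of 9 gap junction genes other than GJB1, 0 had an unadjusted p under 0.05 in HD and 2 were higher in cohort 4 at that level (GJC1 0.47 ± 0.17, GJA4 0.58 ± 0.21). Of 7 tested kallikrein, deiminase and carnosine genes, F2RL1, a protease-activated receptor, stood at 0.71 ± 0.23 in HD and 0.73 ± 0.27 in VHD, which share the LD animals. CARNS1, which makes carnosine, was at 0.73 ± 0.22 and KLK7 at −0.72 ± 0.21 in cohort 4 against 7a. None was called, and the smallest adjusted p among all genes was 0.200 for HD against LD and 0.144 for cohort 4 against 7a (limma).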

How the data were processed

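RNA-seq libraries of 30 animals (ribosome-depleted, stranded, per the labels' protocols) were analysed from the tables that the authors deposited, in which the signal of each of 15521 genes and 156345 exons is reads scaled to a common upper quartile. CASAVA, FastQC, STAR 2.3.0e and edgeR are named in the submitters' processing notes, with genome build and annotation not given in the sources used here. Whole reads were recovered from these values, of which 100% were within 0.01 of a whole read, with 1 read worth 0.656 to 2.07 normalized reads. The 12935 genes with 10 or more normalized reads, and the 119940 exons with 5 or more, in 6 or more libraries were tested on log2(value + 1) with limma 3.58.1 in R 4.3.3, eBayes with a mean trend, Benjamini-Hochberg adjustment at 0.05, and category and cohort as terms. Within-cohort fits used only the animals named. edgeR 4.0.16 (quasi-likelihood, TMM) on the recovered reads was an alternative and called 0 members. Permutation tests used numpy 2.4.6 in Python 3.11.15, and figures matplotlib 3.10.9. Other alternatives were pseudocounts of 0.25 and 4, no filter or a minimum of 100, median-of-ratios scaling, array weights, other terms and each library left out. Methods were tested on simulated data. The text names all 10 members, from other lists up to 2 genes of smallest p in each direction, and the genes most alike in pattern. The members and lists were chosen with earlier results of these data known. One alternative make-up of the myelin score is not reported here.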

Additional observations from a re-analysis of the deposited data

Results flagged for a closer look

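Of 80 sets of member values (10 genes in 4 categories and 4 cohorts), 2 held a library that stood apart from the rest of its set by Dixon's test, where chance gives about 4. The test and the gaps below are on log2(normalized reads + 1). The first was SOX10 in VHD: replicate 4, of cohort 5, measured 219.4 normalized reads (236 reads) and the next animal 144.3, a gap of 0.672 of the whole range against a critical value of 0.625 for 6 samples. The second was PADI2 in cohort 4: the 1 HD animal measured 1010 normalized reads (1431 reads) and the next lowest 1416, a gap of 0.687 of the range against 0.493 for 9 samples. Without that animal PADI2 in HD against LD was −0.33.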

How the results depend on the processing

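No paired analysis was possible because the replicate numbers were given in accession order and pair no animals. Of 748 alternative values of member differences, 29 changed sign and 1 passed an adjusted p of 0.05. Without the category term 1 member was called for cohort 4 against 7a, MYRF, chosen for naming after its value was seen. In VHD against LD, without the cohort term, MYRF was at −0.060 and SOX10 at −0.068 and 0 members had an unadjusted p under 0.05, SOX10 was at −0.017 with array weights, and library-number sets also gave 0 members. In HD, SOX10 was at 0.034 with library-number sets, and a minimum of 100 normalized reads, which leaves fewer members tested, gave 1 member at an unadjusted p under 0.05 (3 for any cohort, 2 for cohort 4 against 7a). BD against LD gave 1 member with array weights, without the cohort term or with library-number sets. The trend gave 2 with array weights. Any category gave 2 with edgeR and with array weights, and 3 without the cohort term or without the 6 libraries under 6 M reads. At equal myelin level, HD gave 1 member with library-number sets, BD 1 with these or with mature oligodendrocyte markers as the score, and cohort 4 against 7a gave 2 with those markers as the score (GPR37 0.055) and 0 with library-number sets (GJB1 −0.064). The causes of these shifts were not tested.

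With single libraries left out, the number of members at an unadjusted p under 0.05 ran from 0 to 1 in VHD (0 without VHD replicate 5), 0 to 1 in BD (1 without LD replicate 3 or VHD replicate 4), 1 to 2 for the trend (2 without VHD replicate 4) and 1 to 3 for any category (3 without VHD replicate 2 or HD replicate 4, and 2 without VHD replicate 1, 4 or 6, HD replicate 1 or 2, BD replicate 2 or 7 or LD replicate 2 or 3). Within cohorts it ran from 0 to 2 for BD in cohort 4 (2 without LD replicate 3), 2 to 6 for VHD against HD in cohort 5 (6 without VHD replicate 6), 1 to 2 for VHD and HD in cohort 7a (2 without HD replicate 4, LD replicate 2 or VHD replicate 5) and 1 to 4 for cohort 4 against 7a within LD (2 without LD replicate 4, 4 without LD replicate 9). The 30 alternative values of r with the myelin score and the 6 of exon medians kept their sign. Low read numbers limit S1PR5, GJB1, KLK6 and FA2H. The alternatives without libraries under 6 M reads, those at equal myelin level and the within-cohort ones with a library left out were chosen after seeing the data.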
